A study of Mus musculus with 3 samples.

Results

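The genes described here are Mpo, Prtn3, Elane, Ctsg, Ms4a3 and Gstm1, a set of genes expressed in early myeloid cells and measured in Mef2c-deficient and control multipotent progenitors (MPPs). They were chosen by name from the probe annotation of the arrays, where Elane carries its older name Ela2. The array held 7 probes for these 6 genes, of 41174 probes that carried 27670 gene names after names were updated. Gstm1 had 2 probes and the other genes had 1 each.

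Each of 3 two-colour Agilent arrays carried cDNA of 1 mutant sample, labelled with Cy3, and 1 control sample, labelled with Cy5. The mutant mice carried the Cre recombinase gene under the Mx1 promoter together with floxed Mef2c alleles (Mx1-Cre Mef2cf/f), and the controls carried the floxed alleles alone (Mef2cf/f). The Mx1 promoter responds to interferon, so Mx1-Cre acts in many interferon-responsive cells and not only in MPPs. Mice of both groups received 250 µg of the RNA analog poly(I:C) on each of 4 days, and marrow was taken 2 days after the last dose. The control therefore received poly(I:C) but had no Cre, and an effect of Cre itself cannot be told apart from the loss of Mef2c. For each sample 15000 cells were sorted that carried c-kit and Sca-1 and lacked the lineage markers CD3, B220, Gr-1, Mac-1 and Ter119, and their cDNA was amplified by a global PCR. The labels give neither the age of the mice nor the number of animals behind a sample. If replicates share animals, the p-values below reflect technical spread alone.

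All 4 genes fixed as markers of the sorted progenitors (Kit, Ly6a, Cd34 and Flt3) were well above background in all 6 channels. Of these, only Kit (c-kit) and Ly6a (Sca-1) encode proteins that the sort used. The tested probes of Itgam, which encodes a chain of Mac-1, and of Cd3e were also well above background in all 6 channels although the sort was made against their proteins. A second, dimmer Cd3e probe was well above background in 0 channels. The share of probes above background ran from 73.4% in mutant 3 to 80.4% in control 2, and 0 spots were saturated. The authors' deposited log ratios follow mutant over control on arrays 1 and 3, by the dyes in the labels, and control over mutant on array 2, although the labels give the same dyes for all 3. Signed values below follow the labels. Turning array 2 changes the sign of every array 2 ratio given, and the means of the 6 genes and the counts and medians of the gene lists are also given with that array turned.

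Primary (azurophil) granules are the first granules made in the neutrophil lineage. They are filled at the promyelocyte stage with myeloperoxidase and with serine proteases of the chymotrypsin fold, and their genes are already transcribed in granulocyte-monocyte progenitors and, at a low rate, in some multipotent progenitors. Mpo encodes myeloperoxidase, the heme enzyme that makes hypochlorous acid. Prtn3 (proteinase 3), Elane (neutrophil elastase) and Ctsg (cathepsin G) encode the proteases. Ms4a3 and Gstm1 encode no granule protein: Ms4a3 is a four-pass membrane protein of granulocyte-monocyte progenitors, and Gstm1 is a cytosolic glutathione S-transferase of the mu class. The transcription factors PU.1, C/EBP, RUNX1 and MYB are known regulators of the granule genes.

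The regions upstream of the 4 granule protein genes are shown because each holds the same 6-base match. They are the 250 bases before each RefSeq start site, 5′ to 3′ on the strand of the gene, in GRCm38.p6. The windows are chr11:87793534-87793783 (+) for Mpo, chr10:79879417-79879666 (+) for Prtn3, chr10:79886062-79886311 (+) for Elane and chr14:56102575-56102824 (-) for Ctsg. Capitals mark matches to GAGGAA (the core bound by PU.1), TAACNG (MYB) or TGTGGT (RUNX) on either strand, and no marked matches overlap.
Mpo: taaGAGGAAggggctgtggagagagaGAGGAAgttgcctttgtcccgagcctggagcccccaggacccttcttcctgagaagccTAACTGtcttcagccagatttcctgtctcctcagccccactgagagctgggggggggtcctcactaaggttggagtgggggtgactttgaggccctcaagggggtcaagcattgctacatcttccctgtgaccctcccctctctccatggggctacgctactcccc
Prtn3: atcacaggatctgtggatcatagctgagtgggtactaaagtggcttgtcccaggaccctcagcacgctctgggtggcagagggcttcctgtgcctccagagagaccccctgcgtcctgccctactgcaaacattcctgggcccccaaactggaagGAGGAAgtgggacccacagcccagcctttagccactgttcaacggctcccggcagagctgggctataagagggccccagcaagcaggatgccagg
Elane: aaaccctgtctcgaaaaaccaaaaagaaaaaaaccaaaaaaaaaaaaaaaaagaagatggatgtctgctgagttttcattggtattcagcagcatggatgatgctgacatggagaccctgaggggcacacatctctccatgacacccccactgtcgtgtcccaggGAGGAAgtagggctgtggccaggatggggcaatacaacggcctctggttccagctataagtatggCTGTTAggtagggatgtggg
Ctsg: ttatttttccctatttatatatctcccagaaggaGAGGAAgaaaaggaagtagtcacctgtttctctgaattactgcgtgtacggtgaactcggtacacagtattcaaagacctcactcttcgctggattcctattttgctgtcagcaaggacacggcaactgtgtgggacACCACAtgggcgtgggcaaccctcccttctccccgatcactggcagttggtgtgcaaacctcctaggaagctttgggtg

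GAGGAA was found in the windows of Mpo, Prtn3, Elane and Ctsg and in none of the other 3 windows, which belong to Ms4a3 (1) and Gstm1 (2 start sites). Of 32851 RefSeq windows of the same length, 23.3% held it. The match began 95 bases before the start site of Prtn3, 85 before that of Elane and 216 before that of Ctsg, while Mpo had 2 matches, at 247 and 224 bases. TAACNG was found in the windows of Mpo and Elane, against 19.8% of all windows, and TGTGGT in that of Ctsg alone, against 14%. TTNNGCAA, a C/EBP half-palindrome found in 9.56% of all windows, was present in 0 of the 7 windows. CTA and TAG with 4 bases of any kind between them, 1 form of a MEF2 site found in 3.20%, was also present in 0. Other forms of these sites were not searched, so their absence was not shown. A match describes the letters only and shows no binding. Prtn3 and Elane are neighbours on chromosome 10, with start sites 6645 bases apart.

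In Mef2c-deficient MPPs, as labelled, Prtn3, Elane, Ctsg, Ms4a3 and Gstm1 had higher signals than in the control on each of the 3 arrays, by means of 1.57-fold to 2.11-fold. Mpo showed no common direction. None of the 6 genes passed the test over all genes (limma, Benjamini-Hochberg adjusted p of 0.462 to 0.932), and neither did any other of the 22220 genes tested. By limma's unadjusted p, under 0.05, 4 of the 6 genes were higher in the mutant (Prtn3, Elane, Ms4a3 and Gstm1) and 0 were lower. Of all genes tested 10.1% reached this level, 4.81% higher and 5.32% lower, and of the 1000 brightest 3.4% were higher. With array 2 turned 0 of the 6 reached it in either direction, where 1.52% of all genes were higher and 1.39% lower.

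Levels below are log2 signals of single channels normalized between arrays, and they compare samples for 1 probe, not one probe with another. Prtn3 had levels of 15.53, 15.48 and 15.35 in mutants 1, 2 and 3 and of 14.41, 14.22 and 14.66 in controls 1, 2 and 3. The groups did not overlap, and the mutants lay closer together than the controls. Its log2 ratios of mutant over control were 1.13, 1.26 and 0.70 on arrays 1, 2 and 3. The mean ratio was 1.03 ± 0.29 (SD, n = 3), with a 95% interval by limma of 0.48 to 1.58 and an adjusted p of 0.462. By unadjusted p (0.004 by limma) Prtn3 had the smallest value of the 6 genes and ranked 162nd of all genes tested. With array 2 turned its unadjusted p by limma was 0.71, and Prtn3 no longer had the smallest. Its probe, for NM_011178, is annotated in the scanner files at chr10:79661141-79661957 in a build that the files do not name.

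Elane, the downstream neighbour of Prtn3, had mutant levels of 15.87, 16.38 and 16.28 and control levels of 15.27, 15.02 and 15.51. The groups did not overlap, and control 2 was the lowest of the 6 samples. The log2 ratios were 0.60, 1.36 and 0.77 and their mean 0.91 ± 0.40 (SD, n = 3), with a 95% interval of 0.31 to 1.5 and an adjusted p of 0.463 by limma. Its probe, for NM_015779, is annotated at chr10:79668034-79668093.

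Ctsg lies on another chromosome, in the cluster of granzyme and mast cell protease genes. Its mutant levels were 15.70, 16.08 and 15.74 and its control levels 15.37, 14.83 and 15.36, so the groups did not overlap but lay within 0.33 and 0.38 of each other on arrays 1 and 3. The log2 ratio was 1.25 on array 2. The mean ratio was 0.65 ± 0.52 (SD, n = 3), and its 95% interval by limma, -0.0041 to 1.31, included 0 (adjusted p = 0.493). Ctsg was thus the protease gene with the smallest mean ratio and the one that rested most on array 2: without that array its mean was 0.35. Its probe, for NM_007800, is annotated at chr14:50967311-50967370.

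As labelled, Mpo had lower ratios than the proteases on each array, though close to that of Ctsg (0.38) on array 3. With array 2 turned the mean was -0.10 for Mpo and -0.18 for Ctsg. The levels of Mpo were 16.68, 16.92 and 16.89 in the mutants and 17.10, 16.67 and 16.53 in the controls. The groups overlapped, and control 1 held the highest value. The log2 ratios of Mpo were -0.41, 0.25 and 0.36. The mean was 0.06 ± 0.42 (SD, n = 3), with a 95% interval by limma of -0.54 to 0.67 (adjusted p = 0.932). This interval allows a change of up to 0.67 on the log2 scale in the upward direction, so it does not show that Mpo was the same in both groups. Relative to the mean ratio of the other 5 genes, Mpo was lower by 1.09 on array 1, 1.09 on array 2 and 0.27 on array 3, a difference that was not tested. Its probe, for NM_010824, is annotated at chr11:87873508-87874283.

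Ms4a3, the membrane protein gene, had mutant levels of 14.21, 14.18 and 13.94 and control levels of 13.44, 12.35 and 13.31. Control 2 lay well under the other controls, and the groups did not overlap. The log2 ratios were 0.78, 1.83 and 0.62, the widest range of the 6 genes. The mean was 1.08 ± 0.65 (SD, n = 3), with a 95% interval of 0.34 to 1.81 and an adjusted p of 0.463 by limma. This was the largest mean of the set as labelled, but not without array 2, where it was 0.70 against 0.91 for Prtn3, nor with array 2 turned, where it was -0.14 against 0.19. Its probe, for NM_133246, is annotated at chr19:11309688-11309747.

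Gstm1 was measured by 2 probes for NM_010358, annotated at chr3:107830934-107830993 and, 384 bases away, at chr3:107830550-107830609. The brighter probe had mutant levels of 14.52, 14.56 and 14.84 and control levels of 13.99, 13.56 and 14.13, with no overlap. Its log2 ratios were 0.53, 1.0 and 0.70, with a mean of 0.74 ± 0.24 (SD, n = 3) and an adjusted p of 0.463 by limma. The dimmer probe had 0.57, 0.44 and 0.52, with a mean of 0.51 ± 0.06 (SD, n = 3) and an adjusted p of 0.550 by limma over all probes. Both probes were thus higher in the mutant on every array, but they disagreed on array 2, where the brighter one had the larger ratio. The dimmer probe's mutant and control levels overlapped, because its 3 pairs differed in level: mutants had 12.40, 11.70 and 12.79 and controls 11.83, 11.25 and 12.26.

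**Figure D1:**
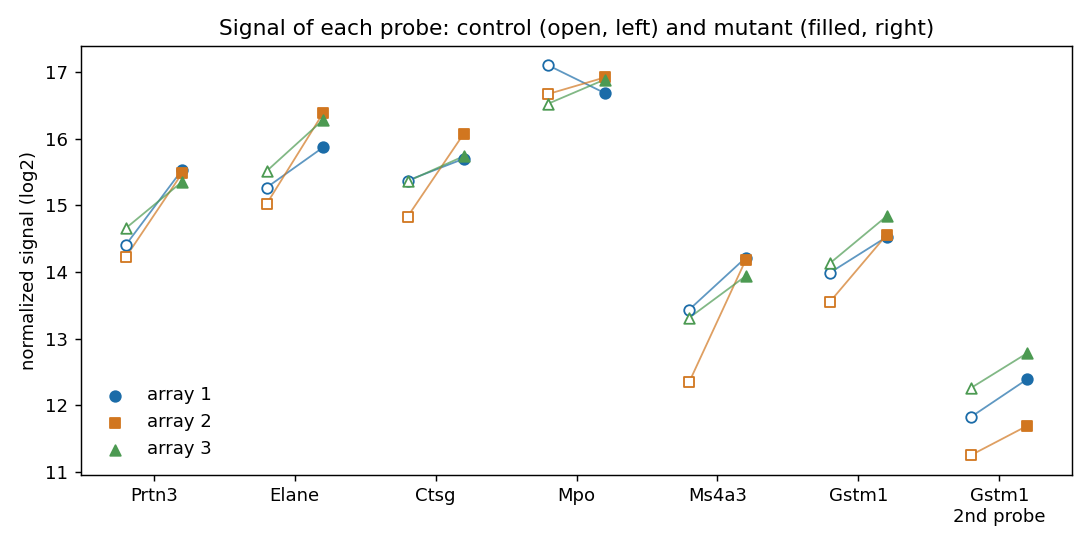
Normalized log2 signal (vertical axis) of the 7 probes (horizontal axis) in the 3 control samples (open symbols, left) and 3 mutant samples (filled symbols, right), with a line joining the 2 samples of an array. Lines run upward for Prtn3, Elane, Ctsg, Ms4a3 and both Gstm1 probes on all 3 arrays, and for Mpo on arrays 2 and 3 but not on array 1.

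Across the set, the tested probes of 5 of the 6 genes had ratios above 0 on every array, against 15.2% of the genes measured on all 3 and 17.3% of the 1000 brightest, and 0 were below 0 on every array, against 20.3%. The count above 0 on every array was 0 of 6 with array 2 turned, as it had to be, since all 6 were above 0 on that array. Means as labelled were above 0 for all 6, against 45.4% of genes. As labelled, for the same 5 genes all 3 mutant levels lay above all 3 control levels, against 7.22% of all genes, and for 0 they lay below, against 11.8%. The median log2 ratio of the 6 genes was 0.57, 1.25 and 0.66 on arrays 1, 2 and 3 and 0.83 over the means, while the median of all genes tested was -0.068, -0.055 and 0.0042 on the 3 arrays and -0.044 over the means. The sample labelled control 2 had the lowest level of the 6 samples for 5 of the 6 genes, and for 14.2% of all genes. If the dyes of array 2 were exchanged, that sample would be a mutant. The highest level was more evenly placed, with 2 genes highest in mutant 1, 2 in mutant 2, 1 in mutant 3 and Mpo in control 1. In bulk samples such as these, fewer cells that express a gene and less RNA per cell cannot be told apart.

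**Figure D2:**
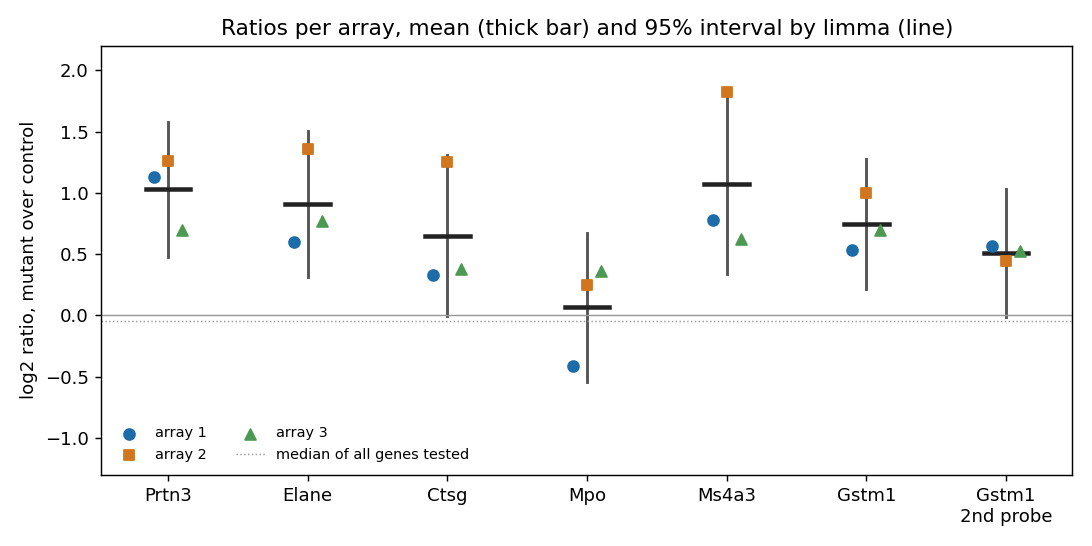
Log2 ratio of mutant over control (vertical axis) for the 7 probes, with 1 symbol per array, the mean as a thick bar and its 95% interval by limma as a line. The dotted line marks the median of all genes tested, -0.044. The intervals of Prtn3, Elane, Ms4a3 and the brighter Gstm1 probe lie above 0 and those of Ctsg, Mpo and the dimmer Gstm1 probe include it.

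Most of these probes were among the brightest of the array. Only 0.012%, 0.022% and 0.032% of probes were brighter than Mpo on arrays 1, 2 and 3, and at most 1.33% were brighter than Prtn3, Elane or Ctsg on any array. For Mpo, Prtn3, Elane and Ctsg the scanner took both channels of every array from the low-gain part of its extended-range scan, as its flags record. It did so for 4 of 6 channels of the brighter Gstm1 probe and for 0 of 6 of Ms4a3 and of the dimmer Gstm1 probe. Prtn3, for example, had mean signals of 40638, 26876 and 28782 in the Cy3 (mutant) channel and 27744, 29136 and 38472 in the Cy5 (control) channel.

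Before loess, which aligns Cy3 and Cy5 at each brightness, Prtn3 had log2 ratios of 0.55, -0.12 and -0.42 and Mpo had -1.06, -1.38 and -0.95. Over all kept probes the median ratio was then -0.82, -1.09 and -1.02 on arrays 1, 2 and 3, so that Prtn3 lay above this median on every array and Mpo below it on arrays 1 and 2. Loess moved Prtn3 up by 0.58, 1.37 and 1.12 and Mpo by 0.65, 1.63 and 1.31, against a median shift of 0.84, 1.14 and 1.04. Mpo, Prtn3, Elane and Ctsg were each moved further than the median probe on arrays 2 and 3, and less far on array 1. When each array was only centred on its median over all spots that are not controls, dim ones included, which lies higher than that of the kept probes, Prtn3 was at 1.22, 0.83 and 0.47, Elane at 0.68, 0.82 and 0.45 and Ctsg at 0.40, 0.75 and 0.09. The same 5 genes stayed above 0 on every array under that scaling, whereas Mpo was at -0.39, -0.43 and -0.064, with a mean of -0.30, where the median of all genes was -0.18.

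**Figure D3:**
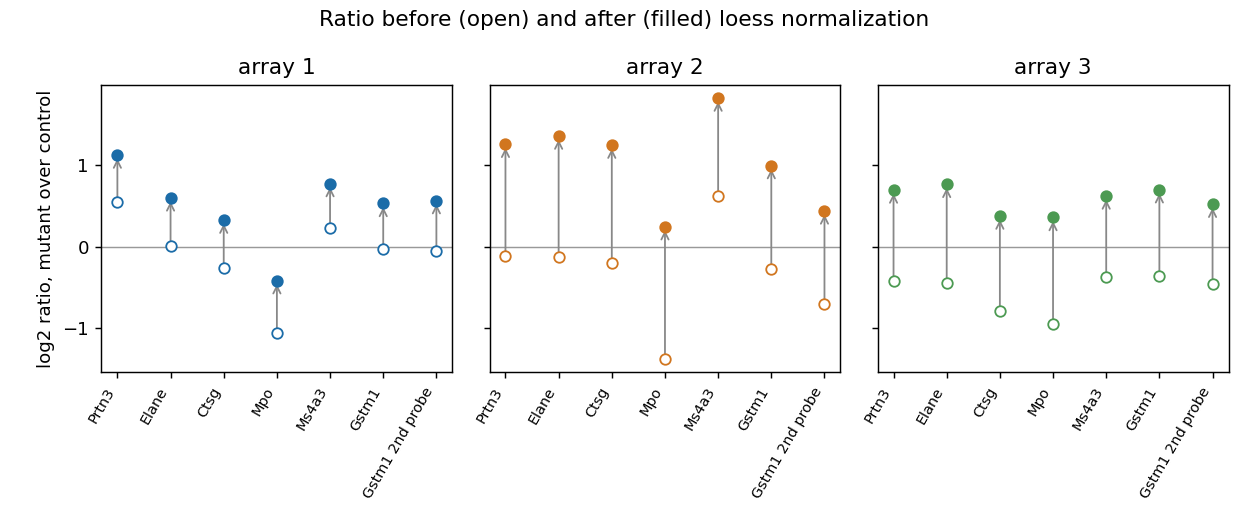
Log2 ratio of mutant over control (vertical axis) of the 7 probes on each array before loess (open) and after it (filled), joined by arrows. All arrows point up, by 0.54 to 0.65 on array 1, 1.15 to 1.63 on array 2 and 0.98 to 1.31 on array 3, and Mpo starts lowest on each array.

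The authors' deposited table gives almost the same ratios for these probes once its columns are set to mutant over control: Prtn3 at 1.13, 1.25 and 0.69, Ms4a3 at 0.78, 1.83 and 0.63 and Mpo at -0.42, 0.24 and 0.35. In the authors' deposited table as it stands, the column of array 2 has the opposite sign, with -1.25 for Prtn3 and -1.83 for Ms4a3. The sources do not settle whether the dyes of array 2 were exchanged or its column alone has the other sign. With array 2 turned, Prtn3 had a mean log2 ratio of 0.19, Elane of 0.003 and Gstm1 of 0.079, and Ctsg, Ms4a3 and Mpo had -0.18, -0.14 and -0.10. The higher signals of the 5 genes in the mutant therefore hold on all 3 arrays only as labelled. Arrays 1 and 3 alone gave means of 0.91 for Prtn3, 0.68 for Elane, 0.35 for Ctsg, 0.70 for Ms4a3 and 0.62 for Gstm1. Their deposited columns run mutant over control by the labels. A dye effect on them cannot be told apart from genotype. With those 2 arrays 1 of the 6 genes, Prtn3, was higher at an unadjusted p under 0.05 by limma. Of the 22210 genes tested on them, 909 were higher and 894 lower at that level.

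Genes that act on the granule proteases were fixed as a list by function: activation (Ctsc), storage (Srgn), inhibition (Serpinb1a, Slpi, Cst7), folding (Calr, Canx) and granule trafficking. All 14 were tested. At the unadjusted 0.05 level of limma 2 were higher and 0 lower, against 4.81% and 5.32% of all genes, and 0 passed over all genes. The number higher was 0 both without array 2 and with it turned. The median log2 ratio of the list was 0.21, or 0.047 with array 2 turned. As labelled 3 of its genes were above 0 on every array, against 15.2% of genes measured on all 3. Rab27a, a small GTPase that docks granules for release, had 0.79, 0.93 and 0.52, with a mean of 0.75 ± 0.21 (SD, n = 3). A dimmer Rab27a probe, above background in all 6 channels, disagreed, with -0.13, 0.72 and -0.44, and with the mean of a gene's probes the list held 1 gene higher. Cst7, the cystatin that inhibits the activating enzyme cathepsin C, had 0.78, 0.56 and 0.48, with a mean of 0.60 ± 0.15. The adjusted p was 0.463 for Rab27a and 0.468 for Cst7 by limma.

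Of 11 transcription factor genes that regulate granule genes, 10 were tested, and 0 of them reached the unadjusted 0.05 level of limma. Of all genes 4.81% were higher and 5.32% lower at that level. The median log2 ratio was 0.20, with 6 above 0 and 4 below, where 45.4% of all genes were above 0. On every array 1 gene was above 0 and 1 below, against 15.2% and 20.3% of genes measured on all 3. Irf8, a factor of monocyte and dendritic cell development, had -0.05, 0.30 and 1.22, and Cebpb, a C/EBP factor of emergency granulopoiesis, had -0.88, -0.11 and -0.03 (adjusted p of 0.564 and 0.627 by limma). A dimmer Irf8 probe had 0.11, 0.24 and 0.06, and a dimmer Cebpb probe -0.75, 0.38 and 1.42. Cebpa, Spi1 (PU.1) and Gfi1 are named here as well, after their values were seen, because they are the best known regulators of this gene set. Their mean log2 ratios were 0.25 ± 0.24, 0.21 ± 0.47 and 0.20 ± 0.18 (SD, n = 3). A dimmer probe for Cebpa differed from the tested one, with 0.93, 0.72 and 0.79. Without array 1, 2 regulator genes were higher at that unadjusted level, where 633 of 22214 genes were higher. With the mean of a gene's probes 1 was higher, where 1145 of 22220 genes were. Turning array 2 gave 0 higher or lower and a median of 0.0086.

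Of 23 other early myeloid genes 22 were tested, and most lay on the same side as the proteases. Of these, 13 were above and 3 below 0 on every array, against 15.2% and 20.3% of genes measured on all 3. By the same unadjusted level 7 were higher and 1 lower, against 4.81% and 5.32% of all genes, and 0 passed over all genes. Without array 2 the number higher was 2, and with that array turned it was 0. The median log2 ratio was 0.43, with 0.35, 0.82 and 0.29 on arrays 1, 2 and 3, and it was -0.066 with array 2 turned. Trem3, a myeloid receptor gene, had 1.82, 1.03 and 0.99, with a mean of 1.28 ± 0.47 (SD, n = 3; adjusted p = 0.462 by limma). Alas1, the first enzyme of heme synthesis, which supplies the cofactor of myeloperoxidase, had mutant levels of 14.73, 14.88 and 14.93 and control levels of 14.14, 13.69 and 14.07, with no overlap. Its mean ratio was 0.88 ± 0.30 (SD, n = 3; adjusted p = 0.462 by limma), and a dimmer Alas1 probe had 0.12, 0.93 and 0.57. Prss57, the fourth neutrophil serine protease, and Fcnb, a ficolin gene, were singled out after their values were seen. Prss57 had 0.50, 1.41 and 0.90, and Fcnb was below 0 on every array, with -1.14, -0.24 and -1.19.

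Genes of later neutrophils, among them genes of the secondary and tertiary granules, lay the other way in most cases. The list was not of granule proteins alone, as it also held genes such as S100a8, S100a9 and Cxcr2. Of 16 genes, 0 were higher and 4 lower by that unadjusted level (7 lower without array 2), against 4.81% and 5.32% of all genes. Of the list, 4 were below 0 on every array and 0 above, against 20.3% and 15.2%, and the median log2 ratio was -0.72. Turned on array 2, the list had 0 higher, 4 lower and a median of -0.48. Itgam had -1.28, -1.05 and -0.83 and a mean of -1.05 ± 0.23 (SD, n = 3). Camp, the cathelicidin gene, had -2.89, -1.0 and -1.45 and a mean of -1.78 ± 0.98 (adjusted p of 0.462 by limma for both). A dimmer Itgam probe had -0.77, -0.19 and 0.07. The array medians were -1.45, -0.00078 and -0.61, and control 1 had the highest mean level of this list, 11.92, against 10.0 and 10.11 in the other controls and 9.61 to 10.05 in the mutants. Of the 6 primary granule genes only Mpo was also highest in control 1. The mean level of the 6 was 14.93 in control 1, 14.44 in control 2 and 14.92 in control 3. Without array 1, where control 1 lies, 2 genes of the later neutrophil list were lower and 2 higher at that unadjusted level. The median of the 6 primary granule genes was then 0.91. The part of later neutrophils in these differences was not tested.

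**Figure D4:**
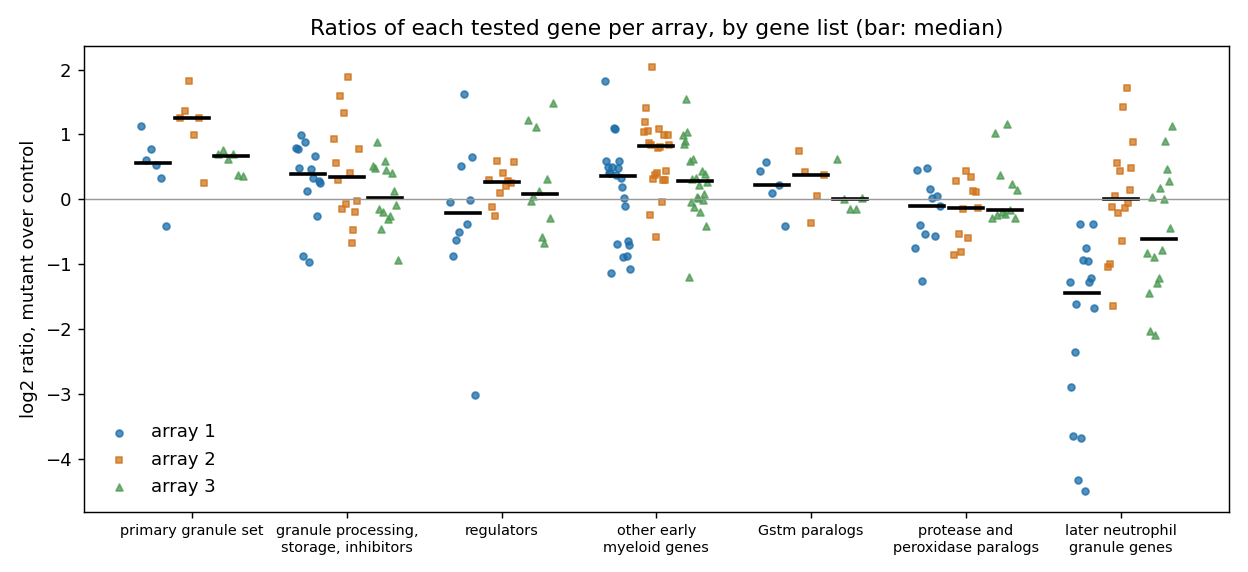
Log2 ratio of mutant over control (vertical axis) of each tested gene of 7 gene lists (horizontal axis), in 1 column per array, with the median as a bar. The primary granule set has medians of 0.57, 1.25 and 0.66, and the later neutrophil granule genes have -1.45, -0.00078 and -0.61, with the lowest points on array 1.

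The listed paralogs and neighbours of the proteases and Mpo, and the paralogs of Gstm1, showed no common direction. No list of relatives of Ms4a3 was made. Prss57, itself a neutrophil serine protease gene, was counted with the other early myeloid genes and had 0.50, 1.41 and 0.90. Of 17 paralogs and neighbours of the proteases and of Mpo, 11 were tested, with a median log2 ratio of -0.04. At the unadjusted level 0 were higher and 1 lower, against 4.81% and 5.32% of all genes. The number lower was 0 and the median -0.055 with array 2 turned. Gzmg, a granzyme gene of the Ctsg cluster, had -0.75, -0.85 and -0.28, and Epx, the eosinophil peroxidase gene, had 0.45, 0.28 and 1.02 (adjusted p of 0.472 and 0.493 by limma). Some genes next to or near the members in RefSeq order (GRCm38.p6) were singled out after their values were seen. Cfd, next to Elane, had 0.16, -0.60 and 1.15, Plppr3 next to Prtn3 had -0.31, -0.18 and 0.40, and Lpo next to Mpo had -0.40, -0.54 and -0.25. Tspoap1, on the other side of Mpo, had 0.77, 1.55 and 0.93, a pattern nearer to that of the proteases than to that of Mpo. Near Ms4a3, its relative Ms4a6d had 0.50, 0.73 and 0.54, and its relative Ms4a2 had 2.01, -0.11 and -0.22. Ampd2, near Gstm1, had 0.43, 0.88 and 0.56. Of 6 paralogs of Gstm1, 5 were tested and 1 was higher at that level: Gstm3 had 0.44, 0.75 and 0.63, and Gstm2 had 0.57, 0.42 and 0.01 (adjusted p of 0.468 and 0.592 by limma). The number higher was 0 with array 2 turned. The mu class genes are close in sequence, and how far a probe for one also binds another was not tested.

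Markers of other cells were read on the same arrays, where 4.81% of all genes were higher and 5.32% lower at the unadjusted level. Of 8 tested monocyte and macrophage genes (10 listed, 7 above background throughout), 1 was higher at the unadjusted level. Their mean level was 10.23 to 10.56 in the mutants and 10.01 to 10.27 in the controls. Adgre1, which encodes the macrophage antigen F4/80, had 0.94, 1.23 and 0.84, and Csf1r had 0.49, 0.40 and 0.33 (adjusted p of 0.462 and 0.515 by limma). Dimmer Csf1r probes had 1.15, 0.43 and 0.38, and 0.42, 0.64 and -0.14. Of 7 mast cell and basophil genes and 7 eosinophil genes 0 were higher or lower at that level, with mean levels of 9.70 to 9.87 in mutants against 9.34 to 9.90 in controls, and of 9.30 to 10.0 against 9.12 to 9.92. Il4 and Gata2 had means of 0.31 and -0.25, and Ccr3 had 0.48 (adjusted p of 0.637, 0.689 and 0.504 by limma). A dimmer Gata2 probe had 0.53, -0.52 and -0.16. A dimmer Ccr3 probe, well above background in 1 mutant and 2 controls, had -0.25, -0.25 and 0.20. Of 6 tested erythroid genes 2 were lower at the unadjusted level, Hba-a1 (-1.68 ± 1.03; SD, n = 3) and Slc4a1 (-1.32 ± 0.87), with mean levels of 10.08 to 10.58 against 10.46 to 10.87. Means of 3 of the 6 were above 0, among them Klf1, an erythroid transcription factor gene singled out after its values were seen, with 1.41, 0.45 and 0.05. Of 8 B and T cell genes 1 was lower, Cd3g (-0.77 ± 0.20), and Pax5 had -0.43 ± 0.30, with mean levels of 8.92 to 8.96 against 9.02 to 9.42. Of the progenitor markers, Ly6a (Sca-1) had 0.93, 0.51 and 1.02. The cytokine receptor gene Flt3, whose protein the sort did not use, had -1.02, -1.26 and -1.19. Kit and Cd34, added after their values were seen, had -0.66, -0.64 and 0.22, and -0.43, -0.61 and 0.17. With array 2 turned, 1 monocyte and macrophage gene and 1 eosinophil gene were higher at the unadjusted level. In the erythroid, B and T cell, mast cell and progenitor marker lists 0 genes were then higher or lower. The part of any of these cells in the ratios of the primary granule genes was not tested.

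The genes whose pattern over the 6 samples was most like the mean of the set were found by the root mean square difference of log2 levels, each centred on its own mean, among 19494 genes well above background throughout. The 6 nearest, at 0.074 to 0.091 log2 units, were D330022A01Rik, Vmn1r47, Ap3s1, Alas1, an unnamed probe (A_52_P442601) and Vps13c. Within the set Ctsg lay at 0.091, Gstm1 at 0.118, Elane at 0.161, Prtn3 at 0.189, Ms4a3 at 0.268 and Mpo at 0.395, although each gene contributes to the mean it is set against. Ap3s1 had log2 ratios of 0.70, 1.02 and 0.58 and Vps13c had 0.42, 1.22 and 0.31. The 6 values of a gene share 3 arrays and 2 dyes, and the nearest genes were not sought with array 2 turned.

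**Figure D5:**
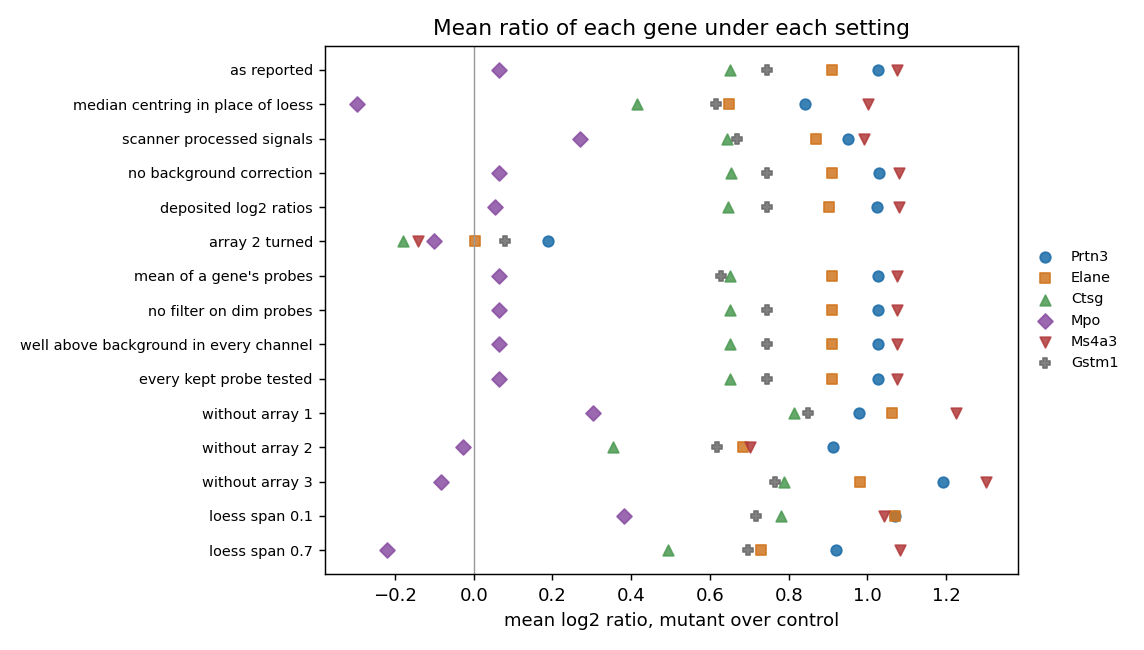
Mean log2 ratio of mutant over control (horizontal axis) of the 6 genes, as reported and under 14 alternative settings (vertical axis). Prtn3, Elane, Ctsg, Ms4a3 and Gstm1 lie above 0 under every setting shown except array 2 turned, where they range from -0.18 to 0.19, while Mpo ranges from -0.30 to 0.38.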

How the data were processed

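Per the file headers, Agilent Feature Extraction 9.5.1.1 wrote the deposited scanner files. As deposited, these give each spot's intensity per dye on a linear scale, extracted by that program, per the file headers. They also give the deposited log10 of Cy5 divided by Cy3. The deposited series table holds log2 ratios, and the sources used here do not give their normalization. The submitters' processing notes name limma. The filled rows of each of its columns were paired with that array's spots by order, and the correlation with the scanner's ratio was -0.947, 0.935 and -0.939 on arrays 1, 2 and 3. A flag column deposited with each spot (other: 0 or 1) gave signals well above background.

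Mean intensities were corrected with normexp (offset 50) and normalized by loess within arrays (limma 3.58.1, R 4.3.3), with control spots at weight 0. Control spots and outlier spots (300, 331 and 252) were left out. Single-channel levels were then normalized by Aquantile. A probe was kept if 1 channel was well above background on 2 or more arrays (32906 probes), and the brightest probe stood for a gene. Ratios were tested against 0 with lmFit and eBayes. All 7 member probes passed the filter. All arrays lay on 1 slide, so no batch could be fitted, and a dye effect cannot be told apart from genotype. In simulated ratios for 22220 genes with the fitted spread, 200 genes were changed. At an unadjusted p under 0.05 by limma, 59 of 67 genes given a 2-fold change were found. The adjusted test recovered 0 of these 67. It recovered 38 of 67 at 4-fold and 62 of 66 at 16-fold. The number of arrays limits the precision.

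The members and lists were chosen with earlier results of these data known. Named genes were each member, of every list the 2 with the smallest unadjusted p among genes above background throughout, and the 6 nearest profiles. Others are marked. Alternatives were median centring, processed signals, no background correction, deposited ratios, array 2 turned, other probe and filter rules, each array left out and, added after seeing the data, loess spans of 0.1 and 0.7 in place of 0.3.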

Additional observations from a re-analysis of the deposited data

How the results depend on the processing

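In every setting tried, 0 of the 6 genes passed over all genes by limma. With array 2 turned, 0 of the 6 genes were higher at an unadjusted p under 0.05 by limma against 4 as reported. The count above 0 on every array was 0 against 5, which the turn fixes, since all 6 genes were above 0 on array 2. The median of the set was -0.049 against 0.83. The related gene lists held 5 genes at that level, in either direction, against 16. Of all genes 1.52% were higher and 1.39% lower with the turn, and 4.81% and 5.32% as reported. Leaving out 1 array in turn gave 1 to 5 of the 6 genes higher at that level, 5 to 6 above 0 on every array left and medians of 0.65 to 0.91. The related lists then held 10 to 15 genes at that level, in either direction. The low counts came without array 2. With fewer arrays it is easier to be above 0 on each, and the share of all genes that were so was not computed. Turning array 2 also reversed Ctsg (-0.18), Ms4a3 (-0.14) and Mpo (-0.10). Mpo reversed too with median centring (-0.30), with a loess span of 0.7 (-0.22), without array 2 (-0.027) and without array 3 (-0.084), and it was 0.30 without array 1, 0.27 with the processed signals and 0.38 with a span of 0.1. No other mean ratio of the 6 genes changed sign in the 14 settings. Over all genes the split at that level was 1069 higher and 1182 lower as reported, 552 and 2320 with median centring, and 693 and 1548 with the processed signals. It was 957 and 1534 with a span of 0.7, and 337 and 308 with array 2 turned. It was 633 and 663 without array 1, 909 and 894 without array 2, and 1355 and 1377 without array 3. Each test was paired, since a ratio sets the mutant against the control of its own array, and no unpaired fit was run.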
